A study of Mus musculus with 6 samples.

Results

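A set of 9 genes that pass signals across or beneath the cell membrane were described in 2 mouse lung squamous cell carcinoma (LUSC) lines, UN-SCC679 and UN-SCC680. They are *Epha7*, *Musk*, *Lyn*, *Map3k8*, *Shb*, *Ptpn3*, *Ptprz1*, *Lpar1* and *Npr2*. Each was found by its Ensembl identifier among the 55359 rows of the count table, and its row was kept only where the table's gene positions match the GRCm38 mouse genome. All 9 were kept, among 1191 rows in the stretches where positions match, called rows at GRCm38 positions below. These rows were kept by stretch, and not every row could be checked. The genes were selected on a reading of these data in which their measured fold changes between the lines were already known, so their own values are given as a description and carry no test.

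Both lines carry the A/J background and come from lung tumors induced by painting mice with N-nitroso-tris-chloroethylurea (NTCU), a carcinogen that gives squamous lesions in the bronchi. Each line goes back to the tumor of a single mouse, was grown in culture and then passed through immunodeficient and A/J mice, and no treatment separates them. Polyadenylated RNA was sequenced in 3 libraries per line. A difference between the lines therefore compares single tumors, and nothing states that the libraries of a line came from separate cultures, so errors measure the spread between these libraries.

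Totals ran from 3568293 to 4381885 counts per library, and mitochondrial rows took 18% to 18.9% of them. Of the 8 markers of squamous and lung cells looked for, 0 lay in the usable stretches, so the squamous identity of the libraries could not be checked. The epithelial splicing factor *Esrp1* had 3 counts over the UN-SCC679 libraries and 0 over those of UN-SCC680. The other usable epithelial marker, *Klf4*, was at 29.6 ± 0.552 CPM in UN-SCC679 and 285 ± 9.08 CPM in UN-SCC680 (SD, n = 3 each). Of the 8 immune markers, 3 could be read, and their summed level was 0.803 to 1.95 CPM in UN-SCC679 and 0.461 to 2.60 CPM in UN-SCC680.

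Protein kinases add phosphate groups to other proteins, and phosphatases remove them. Receptor tyrosine kinases such as the Eph receptors do this when a ligand binds outside the cell, and the Eph receptors read ephrins held on the surface of neighboring cells. Cytoplasmic kinases, adaptors and phosphatases relay or end the signal, while G protein-coupled receptors and receptor guanylyl cyclases act through G proteins and cyclic GMP. Such routes help to control adhesion, migration and growth in epithelial cells.

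The lines differed most in 3 of the genes. *Epha7*, an Eph receptor tyrosine kinase, and *Lpar1*, a G protein-coupled receptor for lysophosphatidic acid, were abundant in UN-SCC679 and much lower in UN-SCC680. *Ptpn3*, a cytoplasmic tyrosine phosphatase with FERM and PDZ domains, was higher in UN-SCC680. *Shb* was slightly lower in UN-SCC680, *Lyn*, *Map3k8* and *Npr2* had libraries that overlapped between the lines, and *Musk* and *Ptprz1* were at or near 0 counts.

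The 250 bases before an annotated start of each of the 3 genes that differed most are shown. Which start the transcripts in these libraries used was not tested. The windows were taken from RefSeq promoters of GRCm38.p6, at the start nearest to the table's own 5′ end of the gene. That start lay 0 bases away for *Epha7* and *Ptpn3* and 407 bases away for *Lpar1*, which has 3 annotated starts. The *Lpar1* window lies inside the gene's span in the table, which ends at 58553898. For *Ptpn3*, the table's end minus that of the RefSeq gene was -37203 bases, so the RefSeq gene reaches further upstream. *Epha7* has 2 annotated starts, and the table's start minus that of the RefSeq gene was 65 bases. The RefSeq gene of *Epha7* thus begins inside the window shown. CpG dinucleotides are in capitals, and each sequence is read 5′ to 3′ on the strand of its gene.
Epha7, chr4:28812881-28813130, plus strand: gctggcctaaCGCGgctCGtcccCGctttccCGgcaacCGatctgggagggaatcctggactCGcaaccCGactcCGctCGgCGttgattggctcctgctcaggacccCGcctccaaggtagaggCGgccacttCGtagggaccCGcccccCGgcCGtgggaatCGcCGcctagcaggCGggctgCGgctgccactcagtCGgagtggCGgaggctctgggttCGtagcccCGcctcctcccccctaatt
Lpar1, chr4:58553492-58553741, minus strand: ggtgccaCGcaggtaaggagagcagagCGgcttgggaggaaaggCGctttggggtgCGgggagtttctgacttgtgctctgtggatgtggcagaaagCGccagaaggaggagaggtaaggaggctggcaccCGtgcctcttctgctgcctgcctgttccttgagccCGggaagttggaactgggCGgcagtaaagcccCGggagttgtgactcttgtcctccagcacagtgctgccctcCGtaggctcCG
Ptpn3, chr4:57301838-57302087, minus strand: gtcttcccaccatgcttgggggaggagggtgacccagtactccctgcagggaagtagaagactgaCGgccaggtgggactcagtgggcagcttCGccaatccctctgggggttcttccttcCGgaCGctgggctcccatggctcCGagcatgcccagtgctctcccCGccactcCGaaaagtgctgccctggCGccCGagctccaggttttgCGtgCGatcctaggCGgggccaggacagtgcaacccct
The window of *Epha7* holds 25 CpG dinucleotides and 69.2% G or C, more CpG than 89.3% of the 32851 promoter windows of the same length. The windows of *Lpar1* and *Ptpn3* hold 11 and 12, against a median of 6 over all windows. The letters GGGCGG or their reverse complement, a GC box, occur in the windows of *Epha7* and *Lpar1* but not in that of *Ptpn3*, and in 32.7% of all windows. Neither TATAAA, found in 12.4% of all windows on either strand, nor TGANTCA, the letters of an AP-1 site found in 6.75%, occurs in any of the 7 windows matched to the genes described here. These matches describe letters only.

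Among the receptor tyrosine kinases, *Epha7* (ENSMUSG00000028289.13, chromosome 4, 28813131 to 28967499 in the table) had 2244, 2713 and 2088 counts in the UN-SCC679 libraries and 8, 3 and 7 in those of UN-SCC680. Every UN-SCC679 library was high and every UN-SCC680 library was within a few counts of the floor of 3 counts used here. Normalized for library size and composition, the level was 599 ± 16.5 CPM (counts scaled to a common library size) in UN-SCC679 and 1.41 ± 0.635 CPM in UN-SCC680 (SD, n = 3 each). The fitted log2 fold change of UN-SCC680 over UN-SCC679 was -8.71 (standard error 0.10). DESeq2 and limma-voom gave standard errors of 0.344 and 0.34, so 0.10 is too small with so few counts in UN-SCC680. From the pooled counts, 7045 against 18, the level was 435-fold higher in UN-SCC679, with a 95% exact interval of 275 to 735 that covers counting error only. The spread between UN-SCC679 libraries was 2.76% of the mean, near the 1.92% to 2.19% that counting alone gives. In bulk RNA, fewer cells with the transcript and less of it per cell cannot be told apart. The 1 other row inside the span of the gene shares 0 exon bases with it.

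*Musk*, the receptor tyrosine kinase through which agrin organizes the neuromuscular junction, had 5, 4 and 0 counts in UN-SCC679 and 1, 2 and 0 in UN-SCC680. A library of each line was at 0, and the lines overlapped. The pooled ratio of 3.34 in favor of UN-SCC679 had a counting interval of 0.833 to 19.2, so no difference was detectable at this depth. It did not pass the filter on low counts and was not fitted.

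The cytoplasmic kinases were expressed at low levels in both lines. *Lyn*, a Src-family kinase best known from blood cells and also found in epithelia, had 74, 70 and 60 counts in UN-SCC679 and 72, 91 and 93 in UN-SCC680. A library of UN-SCC680 lay within the range of UN-SCC679, so the lines overlapped. The normalized level was 17.5 ± 2.09 CPM and 19.95 ± 2.56 CPM (SD, n = 3 each), and the fitted log2 fold change was 0.20 (standard error 0.14, 95% interval -0.08 to 0.48). Scaling within the rows at GRCm38 positions alone turned its direction, to -0.039.

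*Map3k8*, on chromosome 18, encodes the kinase Tpl2, which activates the MEK-ERK cascade downstream of Toll-like and tumor necrosis factor receptors. It had 19, 17 and 23 counts in UN-SCC679 and 36, 30 and 27 in UN-SCC680. After normalization the lowest UN-SCC680 library, at 6.35 CPM, lay just under the highest of UN-SCC679, at 6.40 CPM. The means were 5.11 ± 1.28 and 7.26 ± 1.13 CPM (SD, n = 3 each), with a log2 fold change of 0.53 (standard error 0.25). Its 95% interval, 0.046 to 1.01, ran from 1.03-fold to 2.01-fold. The standard error was 0.382 with DESeq2 and 0.244 with limma-voom, so whether such an interval leaves out 0 depends on the fit. No difference is read from it.

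*Shb*, an SH2-domain adaptor that couples tyrosine kinase receptors to downstream proteins, had 639, 843 and 700 counts in UN-SCC679 and 632, 683 and 631 in UN-SCC680. The normalized level was 171 to 195 CPM in UN-SCC679 and 148 to 157 CPM in UN-SCC680. All UN-SCC680 libraries were below all UN-SCC679 libraries, by a small margin. The log2 fold change was -0.29 (standard error 0.056), which is 1.22-fold lower, and it was -0.53 when scaled within the rows at GRCm38 positions.

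Of the tyrosine phosphatases, *Ptpn3* (ENSMUSG00000038764.15, chromosome 4, 57190841 to 57301837) had 262, 297 and 252 counts in UN-SCC679 and 1453, 1498 and 1476 in UN-SCC680. The normalized level was 69.2 ± 1.70 CPM in UN-SCC679 and 345 ± 1.46 CPM in UN-SCC680 (SD, n = 3 each). The lines lay far apart and the libraries within each were close, with a spread of 2.46% and 0.422% of the mean. Both spreads lie below what counting alone gives, 5.8% to 6.3% in UN-SCC679 and 2.58% to 2.62% in UN-SCC680. The log2 fold change was 2.32 (standard error 0.055), or 5-fold. The gene shares 30 exon bases of its 7238 with *Gm12536* on the other strand, which had 0 to 2 counts per library.

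*Ptprz1*, a receptor phosphatase of glia and neurons that binds pleiotrophin, had 1 count in the second UN-SCC679 library and 0 in the other 5 libraries. Its transcript was not detectable at this depth in UN-SCC680, where 3 counts would be 0.685 to 0.707 CPM. It did not pass the filter on low counts.

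*Lpar1* (ENSMUSG00000038668.15, chromosome 4, 58435255 to 58553898) had 2293, 2619 and 2262 counts in UN-SCC679 and 175, 150 and 170 in UN-SCC680. The level was 612 ± 18.5 CPM against 38.6 ± 3.63 CPM (SD, n = 3 each). Every UN-SCC680 library was low but still far above the floor of 3 counts. The log2 fold change was -3.98 (standard error 0.058, and 0.083 with DESeq2), or 15.8-fold lower. *Lpar1* is also known as a receptor of fibroblasts, and the fibroblast marker *Col1a2* moved with it, from 27920 ± 1220 to 2256 ± 93.7 CPM. Of the 6 fibroblast markers listed, 2 could be read, and their summed level was 26500 to 28900 CPM in UN-SCC679 and 2180 to 2360 CPM in UN-SCC680. The second, *Svep1*, had 1 count over UN-SCC679 and 4 over UN-SCC680. The part of fibroblast-like cells in the result was not tested.

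*Npr2*, the receptor guanylyl cyclase for C-type natriuretic peptide, carries a kinase homology domain without being a protein kinase. It had 358, 394 and 312 counts in UN-SCC679 and 407, 383 and 389 in UN-SCC680. The level was 90.6 ± 4.69 and 91.99 ± 4.11 CPM (SD, n = 3 each), and the libraries of the lines were interleaved. The log2 fold change was 0.022, with an interval of -0.11 to 0.16. Its sign turned with the scaling, to -0.005 by library totals alone and to -0.22 within the rows at GRCm38 positions. It shares 266 of its 4667 exon bases with *Gm12473* on the other strand, and whether counting used strand is not given in the sources used here. That row had 4 to 10 counts per library.

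**Figure D1:**
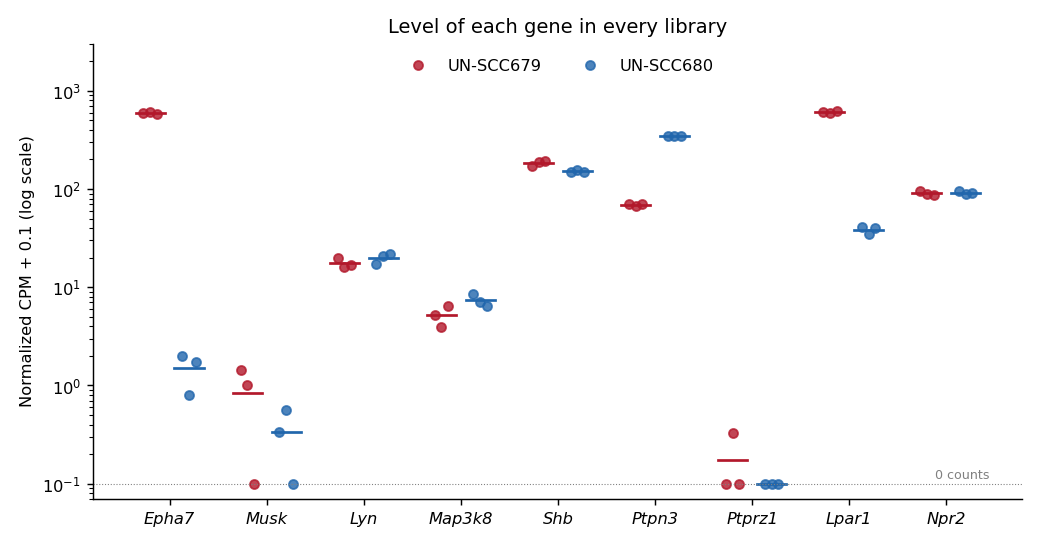
Normalized CPM of the 9 genes in each of the 6 libraries, on a log axis with 0.1 added; points are libraries, bars are means of the 3 libraries of a line, and the dotted line marks 0 counts. *Epha7* and *Lpar1* are higher in all UN-SCC679 libraries and *Ptpn3* in all UN-SCC680 libraries, while the lines overlap for *Lyn*, *Map3k8*, *Npr2*, *Musk* and *Ptprz1*.

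Of the 9 genes, 7 passed the filter on low counts. The choice of the genes used this contrast, so the counts and calls that follow, in this and the other fits, are not a result about them. At an adjusted p-value of 5e-05 in edgeR's quasi-likelihood test, 4 of the 7 were past the threshold, 3 of them lower in UN-SCC680, beside 52.4% of the 357 tested rows at GRCm38 positions and 30.4% of all 8987 tested rows. *Shb* was past it under 6 of 14 other fits only: the count was 3 of the 7, 2 of them lower, with DESeq2, with limma-voom, with the replicate block and without any 1 library other than the first of UN-SCC679. *Epha7*, *Lpar1* and *Ptpn3* were past it under all 14. Refits of the same libraries show how calls depend on the fit and do not test genes chosen for this difference. The 4 genes had libraries that did not overlap between the lines, beside 76.2% and 62.2% of those rows. The median log2 fold change of all 7 fitted genes was 0.022, against 0.23 over the rows at GRCm38 positions and -0.003 over all rows. Most of the 8987 rows lie outside GRCm38 positions and were not read as genes, so values over all rows describe rows only. Of the tested rows at GRCm38 positions, 8 had a lower fitted log2 fold change than *Epha7*, 15 a lower one than *Lpar1*, and 7 a higher one than *Ptpn3*.

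Levels of different genes were compared per kilobase of exon (RPKM). In UN-SCC679, *Lpar1* led with a mean of 143 RPKM, followed by *Epha7* at 60.6 and *Shb* at 58.0, whose libraries overlapped. *Npr2* at 19.4, *Ptpn3* at 9.56, *Lyn* at 4.28 and *Map3k8* at 1.14 RPKM followed without overlap between neighbors in this order. *Musk* at 0.198 and *Ptprz1* at 0.00529 RPKM came last and overlapped. In UN-SCC680 the order opened with *Ptpn3* at 47.7 and *Shb* at 47.4 RPKM, which overlapped, and then *Npr2* at 19.7, *Lpar1* at 9.01, *Lyn* at 4.90 and *Map3k8* at 1.61 RPKM, each apart from the next. *Epha7*, at 0.143 RPKM, stood beside *Musk* at 0.0616 RPKM and overlapped it. As a share of all counts in the 9 genes, *Epha7* and *Lpar1* together made up 76.7% in UN-SCC679 and 6.1% in UN-SCC680, where *Ptpn3* alone made up 52.6%.

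**Figure D2:**
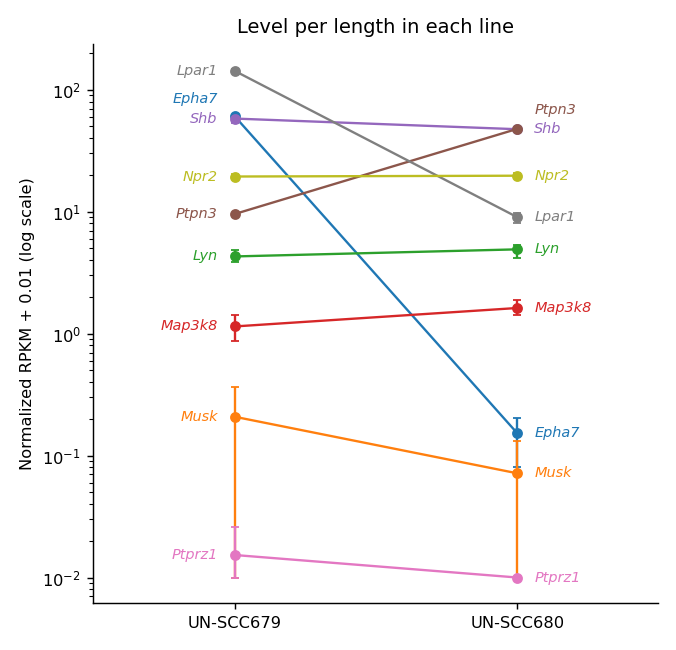
Normalized RPKM of each gene in UN-SCC679 (left) and UN-SCC680 (right), on a log axis with 0.01 added; points are means of 3 libraries and bars run from the lowest to the highest library. *Epha7* and *Lpar1* drop in the order, *Ptpn3* goes from 9.56 to 47.7 RPKM to share the first place with *Shb*, and *Shb*, *Npr2*, *Lyn* and *Map3k8* keep their order among themselves.

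The genes next to each member were read for comparison, as the nearest tested and named gene on either side at a GRCm38 position, a choice made after the values were seen. *Epha7* lies between the mannosidase gene *Manea*, 2466.2 kb away, and the kinase gene *Map3k7*, 2996.6 kb away. Both rose in UN-SCC680, with log2 fold changes of 0.53 and 0.54 (edgeR adjusted p = 1.02e-13 and 1.76e-18). The median over the tested rows at GRCm38 positions was 0.23. The drop of *Epha7* was not seen in *Manea* or *Map3k7*, and untested or unnamed rows nearer to it were not compared. The thioredoxin gene *Txn1*, 478.8 kb before *Lpar1*, had a log2 fold change of -0.060 (edgeR adjusted p = 0.0868) and did not pass the threshold. No tested and named gene after *Lpar1* lay in the stretch used, so that side was not read.

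Around *Ptpn3* both neighbors were higher in UN-SCC680, as it was. The FERM-domain gene *Epb4.1l4b*, 47.4 kb away, rose from 5.57 ± 0.590 to 21.9 ± 1.88 CPM, a log2 fold change of 1.98 (edgeR adjusted p = 3.49e-13). *Palm2*, which encodes a membrane-bound paralemmin and lies 132.4 kb away on the other side, rose from 10.1 ± 2.57 to 24.0 ± 1.73 CPM, a log2 fold change of 1.25 (edgeR adjusted p = 3.71e-09). *Cadps2*, a gene of vesicle exocytosis 209.9 kb from *Ptprz1*, had 152 counts over the UN-SCC679 libraries and 0 over those of UN-SCC680.

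**Figure D3:**
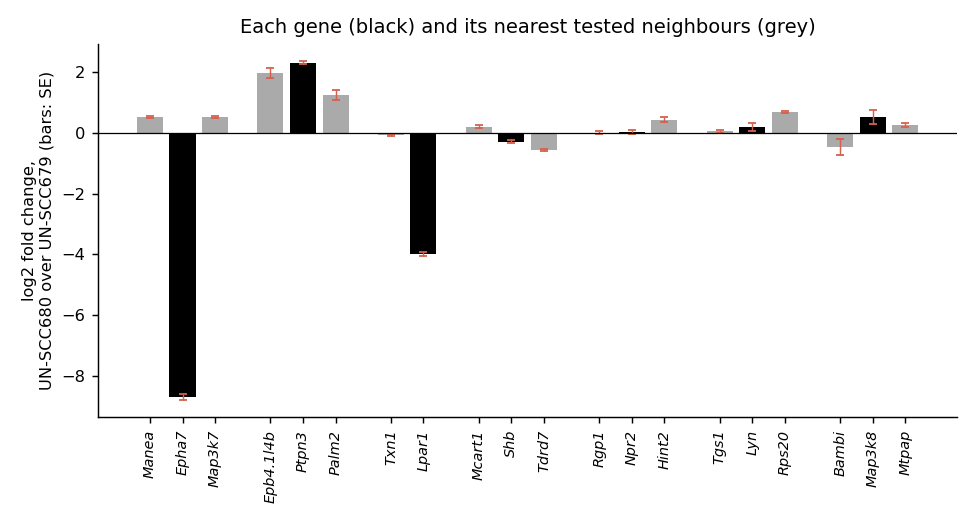
Log2 fold change of UN-SCC680 over UN-SCC679 for each fitted gene (black) and the nearest tested gene on either side (grey), in chromosomal order within each group. *Lpar1* has a neighbor before it only. Error bars are standard errors. *Epha7* at -8.71 stands between neighbors at 0.53 and 0.54, while *Ptpn3* at 2.32 stands between neighbors at 1.98 and 1.25.

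The profiles most like those of *Epha7* and *Lpar1* were sought among 290 genes at GRCm38 positions with a mean of at least 5 CPM, by the root mean square difference of centred log2 CPM (prior count 2) over the 6 libraries. The nearest to *Epha7* were the mitochondrial carrier gene *Slc25a13* (0.30 log2 units), the sialic acid acetyltransferase gene *Casd1* (0.32) and the fatty acid oxidation gene *Decr1* (0.39). *Slc25a13* went from 298 ± 4.26 to 0.546 ± 0.138 CPM, and *Casd1* and *Decr1* from 157 ± 4.29 and 116 ± 1.28 CPM to 0 counts. The nearest to *Lpar1* were the collagen gene *Col1a2* (0.19), the cortactin-binding gene *Cttnbp2* (0.26) and *Asb4* (0.27), which encodes a substrate adaptor of a ubiquitin ligase. *Cttnbp2* went from 10.2 ± 0.314 CPM to 0 counts. For *Casd1*, *Decr1* and *Cttnbp2*, with 0 counts in every UN-SCC680 library, the prior count sets the level in that line and so their distance. Each of these profiles is set by the difference between the lines.

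To place the 9 genes among other signaling genes, lists of kinases, adaptors and regulators, small GTPases, G protein-coupled receptors with G proteins, and ligands with cytokine receptors were read in the same fit. The lists were chosen with earlier results of these data known, so the shares past the threshold are a description only. Of their 54 genes, 50 lay at GRCm38 positions, 14 of these had 0 counts in all libraries, and 27 were tested. At the threshold of 5e-05 (edgeR, adjusted over all rows), 18 of the 27 differed, or 66.7%, beside the 52.4% above. Of these, 10 were higher and 8 lower in UN-SCC680, and the median log2 fold change of the 27 was 0.11. Among the 357 tested rows at GRCm38 positions, 37.5% were higher and 14.8% lower at this threshold. The counts per list below stand beside these shares. No call reversed its direction under the 3 other scalings tried, and 15 of the 18 calls held under all 14 other fits. *Melk* lost its call when scaling was within the rows at GRCm38 positions. *Ripk2* lost its call under 7 fits, among them that scaling, library totals alone, DESeq2 and leaving out replicate 2 or 3 of either line. *Gem* lost its call under 5, with DESeq2, with limma-voom and without the second UN-SCC679 library or the first or second of UN-SCC680.

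Of the 7 protein kinases tested, 4 rose and 2 fell. *Tgfbr1*, the type I receptor kinase for TGF-β, had 1027, 1250 and 1040 counts in UN-SCC679 and 2428, 2676 and 2689 in UN-SCC680. It rose by 1.11 on the log2 scale (standard error 0.042, edgeR adjusted p = 2.71e-26). *Met*, the receptor tyrosine kinase for hepatocyte growth factor, fell from 4170 ± 46.6 to 1554 ± 22.3 CPM, a log2 fold change of -1.42 (standard error 0.028, edgeR adjusted p = 2.55e-37). *Pdk4*, a mitochondrial kinase that inhibits pyruvate dehydrogenase, had 1724, 1973 and 1605 counts in UN-SCC679 and 0, 1 and 1 in UN-SCC680. Its pooled ratio of 2948 had a counting interval of 816 to 24353. *Map3k7*, *Melk* and *Ripk2* rose by log2 fold changes of 0.54, 0.37 and 0.30, and *Tesk1* at 0.27 did not pass (edgeR adjusted p = 0.00118).

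Of the 12 adaptors and regulators tested, 2 rose, 4 fell and 6 did not pass. *Asb4* fell from 46.4 ± 0.930 to 2.11 ± 0.863 CPM, a log2 fold change of -4.44 (standard error 0.19). *Ppp1r9a*, which brings protein phosphatase 1 to actin, fell from 31, 46 and 18 counts to 5, 5 and 4, a log2 fold change of -2.85 (standard error 0.35). The caveolin genes *Cav1* and *Cav2*, whose proteins form membrane pits that hold receptors, fell by 0.36 and 0.34 on the log2 scale, and talin (*Tln1*) and cyclin C (*Ccnc*) rose by 0.56 and 0.51.

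All 4 small GTPases tested differed, 2 in each direction, beside 37.5% higher and 14.8% lower among the tested rows at GRCm38 positions. *Rragd*, a Rag GTPase of the mTORC1 pathway, went from 82, 88 and 68 counts to 13, 8 and 8, a log2 fold change of -3.15 (standard error 0.22). *Gem*, an inhibitor of voltage-gated calcium channels, fell from 5.37 ± 1.52 to 1.33 ± 0.490 CPM, a log2 fold change of -2.01 (standard error 0.36, edgeR adjusted p = 6.09e-06). *Rab2a* and *Arf5*, which act in vesicle traffic, rose by 0.66 and 0.56 on the log2 scale.

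Of the 10 listed G protein-coupled receptors and G proteins, 3 were tested and 1 rose. This was the orphan receptor *Gpr85*, with 61, 92 and 81 counts in UN-SCC679 and 233, 248 and 250 in UN-SCC680, which is a difference of 1.52 on the log2 scale (standard error 0.11, edgeR adjusted p = 2.04e-16). *Gpr63* at -0.23 and *Opn1sw* at -0.055 did not pass. The glutamate receptor *Grm8*, under the filter, had 7, 6 and 9 counts in UN-SCC679 and 0 in each UN-SCC680 library.

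Of the 12 usable ligands and cytokine receptors, 11 were under the filter and 1, the secreted factor gene *Fam3c*, rose by 0.55 on the log2 scale (edgeR adjusted p = 9.21e-14). Of 37 ligands, relatives and partners of the 9 genes, among them the ephrins, *Enpp2*, *Agrn*, *Ptn* and *Nppc*, 0 lay at GRCm38 positions, and their rows were not used here.

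**Figure D4:**
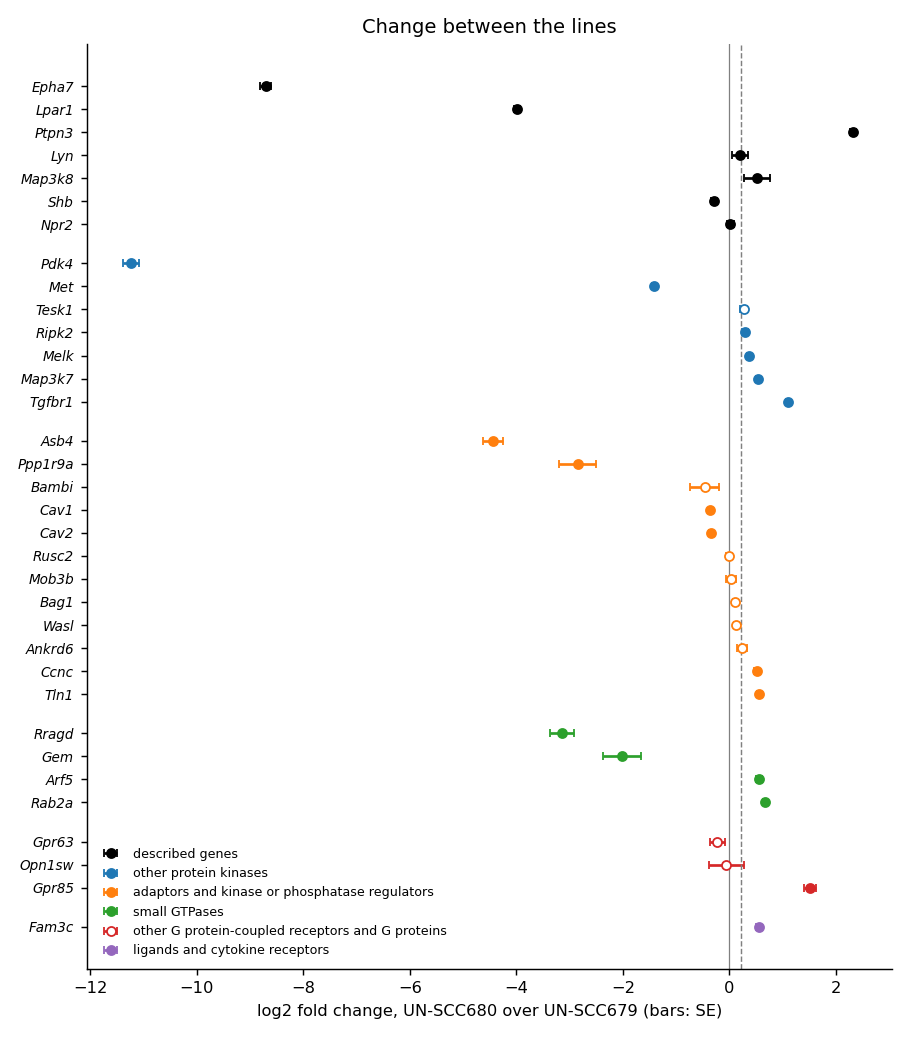
Log2 fold change of UN-SCC680 over UN-SCC679, with standard errors, for the 7 fitted genes described here (black, no test) and the 27 tested genes of the other signaling lists (filled where the adjusted p-value was under 5e-05, open where not). The dashed line is the median of 0.23 over the 357 tested rows at GRCm38 positions; the fitted value of *Pdk4*, with 2 counts over UN-SCC680, depends on the prior count.

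The rows used for scaling moved the small differences. Scaling within the rows at GRCm38 positions, tried after the data were seen, shifted all log2 fold changes by -0.24. *Epha7*, *Lpar1*, *Ptpn3* and *Shb* kept their direction under all 14 settings tried, *Ptpn3* between 2.08 and 2.35 and *Lpar1* between -4.22 and -3.90. *Epha7* ran from -8.96 without the first UN-SCC680 library to -8.37 without the second, which had 3 counts.

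**Figure D5:**
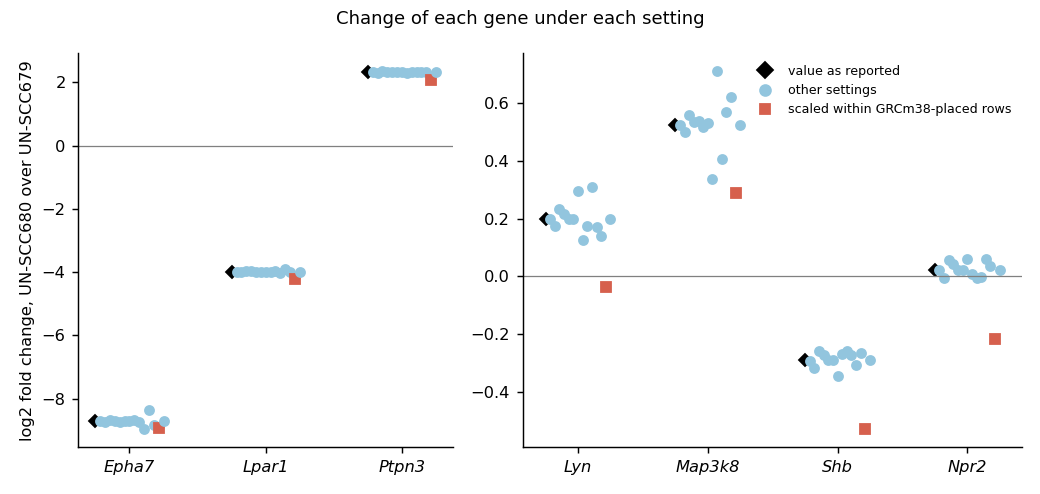
Log2 fold change of UN-SCC680 over UN-SCC679 of each fitted gene as reported (diamond), under 13 other settings (circles) and scaled within the rows at GRCm38 positions (square), with separate vertical scales. The square lies lower than the diamond for all 7 genes, and it falls below 0 for *Lyn* and *Npr2*.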

How the data were processed

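RNA of 2 cell lines was sequenced in 3 libraries each (stranded mRNA kit, paired-end). Raw read counts for each Ensembl gene were deposited by the authors, beside exon positions and summed exon length. Per the labels, featureCounts and mm10 were used, while the paper's methods name Trimmomatic, Kallisto and DESeq2. Most positions in the table are not those of mm10 (GRCm38), so rows were kept only where both match, which held for lowest starts under 58.6 Mb on chromosome 4, 29.5 Mb on chromosome 6 and 5.8 Mb on chromosome 18. Of 571 kept rows placed by symbol in RefSeq, 385 had a start or end within 10 bases and 23 had both ends over 1000 bases away. Of the 9 members, 6 had a start or end within 10 bases, and *Lyn*, *Musk* and *Npr2* one within 47, 231 and 193 bases. Just inside the limit on chromosome 4 lay *Lpar1* (7669 counts over all libraries) and *Gm12577* (468), and just outside it *Gm12579* (73).

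Columns were matched to libraries by line and replicate number, and 0 columns were unused. Symbols matched 31021 of 55359 rows. Counts of all rows passing filterByExpr were scaled by TMM and compared by the quasi-likelihood test of edgeR without covariates (Benjamini-Hochberg adjusted p under 5e-05), and the standard error was derived from the F statistic. This standard error can be too small where a line has few counts, as for *Epha7*. RPKM divides normalized CPM by exon length. Pooled ratios carry 95% exact binomial intervals for counting error only. The fit was tested on simulated data with 200 changed rows, of which it called 159, and it called 0 other rows. Libraries of a line differed by more than sampling noise, and each counted as 1 sample.

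The members and lists were chosen with earlier results of these data known. Named genes were all 9 members, list genes past the threshold with an absolute log2 fold change of at least 1, and the 3 nearest profiles to *Epha7* and *Lpar1*. The neighbors, the other list genes and the markers were named after their values were seen. Alternatives were other scalings and filters, DESeq2, limma-voom, the replicate block, other thresholds and leaving out each library. Software comprised Python 3.11.15 (pandas 2.3.3, NumPy 2.4.6, SciPy 1.17.1, matplotlib 3.10.9) and R 4.3.3 (DESeq2 1.42.0, edgeR 4.0.16, limma 3.58.1). Scaling within the kept rows and leaving out mitochondrial rows were added after seeing the data.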

Additional observations from a re-analysis of the deposited data

How the results depend on the processing

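The 2736 rows and the 18 signaling genes outside the members past the threshold became 1024 and 8 when a log2 fold change beyond 1 in either direction was also required, and 5248 and 22 at an adjusted p-value under 0.05. The stricter or looser criterion itself sets these counts. DESeq2 gave 1854 rows and 16 signaling genes, and limma-voom 2504 and 17. Scaling within the rows at GRCm38 positions gave 2950 rows, of which 744 were higher in UN-SCC680, against 1371 of the 2736, and 16 signaling genes. Leaving out each library in turn gave 2225 to 2611 rows and 16 to 18 signaling genes. The replicate block gave 2528 rows and 18 signaling genes. For replicates 1, 2 and 3, deviations from the line means had correlations of -0.0382, -0.000524 and -0.0218 across the lines, so no pairing was used, and 0 of the 3 correlated best with its own number. Of the rows called both ways, 0 changed direction under each of the 14 other fits. Requiring a call in both fits of the same counts nearly fixes this outcome in advance. The shared rows ran from 1851 with DESeq2 to 2726 without mitochondrial rows. Among the members, *Lyn* took the opposite sign under 1 of 14 alternatives and *Npr2* under 4, and the other 5 fitted members under 0. Depth limits *Musk*, *Ptprz1*, *Map3k8* and the UN-SCC680 level of *Epha7*.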
